A study of Mus musculus with 16 samples.

Results

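The 9 genes described here encode adhesion receptors of marrow and blood cells: the integrin alpha subunits Itga4, Itgal and Itgam, the integrin beta subunits Itgb1, Itgb2 and Itgb7, the selectin ligand Selplg (PSGL-1), the hyaluronan receptor Cd44, and Icam1, the immunoglobulin family ligand of beta 2 integrins. They were taken by gene symbol from a list chosen with earlier results of these data known. The other gene lists used below were chosen in the same way. Counts of called genes on a list, set beside those of all genes, are therefore a description. All 9 genes were listed among 15080 genes in tumor and 13344 genes in stroma. The libraries came from C57BL/6J mice, WT or deleted for Il6 (IL-6 KO), of 6 to 8 weeks and of both sexes, each injected with 500000 cells of 1 transplantable BCR-ABL+ Arf-/- B-ALL line that carries mCherry. The deletion was in the host only, and the leukemic line was the same in both genotypes. Marrow of femur and tibia was taken from untreated mice on day 8 and sorted into mCherry+ cells (tumor) and mCherry- cells (stroma), with 4 libraries in each of the groups WT tumor, IL-6 KO tumor, WT stroma and IL-6 KO stroma. The stroma sort takes every mCherry- marrow cell, so it holds normal blood cells of all lineages as well as any mesenchymal stroma. The labels do not say which libraries share a mouse or whether each library is 1 mouse, so p-values measure the spread between these libraries.

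Integrins work as pairs of an alpha and a beta subunit. Itga4 pairs with Itgb1 as VLA-4, the receptor for VCAM-1 and fibronectin that holds progenitors and leukemic cells in the marrow, or with Itgb7 as the receptor for MAdCAM-1 in gut tissue. Itgb2 is shared by LFA-1 (with Itgal), which lymphocytes use to bind ICAM-1, and Mac-1 (with Itgam), which is typical of neutrophils and monocytes. PSGL-1 carries cells along selectins of the vessel wall, and CD44 binds hyaluronan in the marrow matrix.

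The promoters of 3 genes that were higher in IL-6 KO tumor are shown, as the 250 bases before the RefSeq gene start (GRCm38.p6), 5′ to 3′ on the gene's strand. Of the 9 genes 6 had an entry: Itga4, Itgam, Itgb1, Itgb7, Cd44 and Icam1. Capitals mark the letters TTCNNNGAA, a form of the sequence that STAT factors bind, or GAGGAA, the core of sites for the myeloid and B cell factor PU.1, on either strand. The 2 motifs do not overlap in these windows.
Icam1: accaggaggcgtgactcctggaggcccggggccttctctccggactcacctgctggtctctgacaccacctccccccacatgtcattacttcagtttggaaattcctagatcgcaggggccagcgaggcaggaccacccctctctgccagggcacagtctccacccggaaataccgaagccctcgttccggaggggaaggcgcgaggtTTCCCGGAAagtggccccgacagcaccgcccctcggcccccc
Itgam: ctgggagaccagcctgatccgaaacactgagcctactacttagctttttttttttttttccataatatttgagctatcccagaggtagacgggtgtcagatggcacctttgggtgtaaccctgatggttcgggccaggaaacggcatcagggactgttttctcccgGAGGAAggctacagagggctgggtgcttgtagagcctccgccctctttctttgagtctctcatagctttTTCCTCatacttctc
Itgb7: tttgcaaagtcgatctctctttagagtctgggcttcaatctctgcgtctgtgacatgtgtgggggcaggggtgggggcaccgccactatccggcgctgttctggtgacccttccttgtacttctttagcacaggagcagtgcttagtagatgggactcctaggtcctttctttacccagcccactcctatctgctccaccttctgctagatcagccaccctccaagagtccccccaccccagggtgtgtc
The Icam1 window (chr9:21015690-21015939, plus strand) holds 1 match to TTCNNNGAA, whose first base lies 42 bases before the start, and it was the only one of the 6 promoters with such a match. Of 32851 promoters of this length, 2306 (7.02%) hold TTCNNNGAA. The Itgam window (chr7:128062390-128062639, plus strand) holds GAGGAA 84 and 15 bases before the start, the nearer one on the opposite strand. Cd44 holds GAGGAA at 243 and 220 bases and Itgb1 at 9 bases, and 7639 of all promoters (23.3%) hold it. The Itgb7 window (chr15:102231936-102232185, minus strand) and that of Itga4 hold neither.

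The libraries stood apart by genotype in measures other than these genes. Sums of normalized counts were 38817792 to 44552085 in WT and 47267047 to 55592959 in IL-6 KO tumor, and 8805689 to 17470735 in WT and 33973016 to 44191950 in IL-6 KO stroma, with no overlap in either table. The noncoding RNA Rn7s1 held 3.40% to 4.11% of the sum in WT and 5.40% to 6.24% in IL-6 KO tumor, also with no overlap, and 19.2% to 50.1% in WT and 10.9% to 79.0% in IL-6 KO stroma. The part of these differences in the results was not tested.

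In tumor, 4 of the 9 genes rose in IL-6 KO hosts and none fell, at an adjusted p under 0.05 (limma on log2 of the normalized count + 1, Benjamini-Hochberg over all genes tested). They were Itgb7, Itgam, Itgb2 and Icam1, and in each of them every IL-6 KO library was above every WT library. Among all 14493 genes tested in tumor, 19.8% were called, 10.6% higher and 9.16% lower in IL-6 KO, and 25.6% had genotypes that did not overlap. Log2 fold changes (log2FC) are given as IL-6 KO minus WT on this log2 scale, where the + 1 makes changes of low genes look smaller. The median log2FC was 0.31 over the 9 genes, with 7 estimates above 0, and -0.01 over all genes. 

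**Figure D1:**
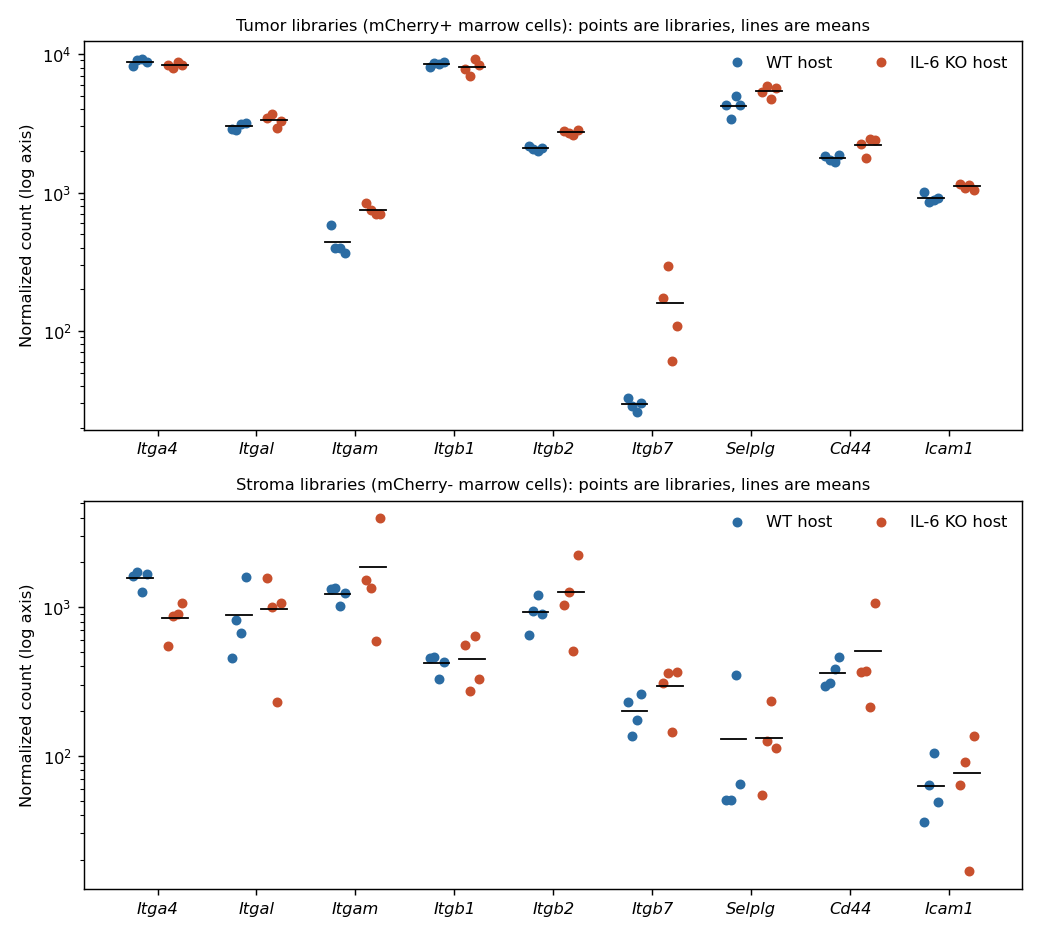
Normalized count (log axis) of each adhesion gene in tumor libraries (top) and stroma libraries (bottom), with blue points for WT and red points for IL-6 KO libraries and a line at the mean of 4. In tumor the IL-6 KO points of Itgam, Itgb2, Itgb7 and Icam1 lie above all WT points, and in stroma only Itga4 has genotypes that do not overlap.

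Itgb7, the beta subunit of the gut-homing integrin (ENSMUSG00000001281.10, chr15:102215995-102231944, minus strand, GRCm38), had the largest change of the 9. Its normalized counts were 32.8, 28.9, 26.0 and 30.3 in WT tumor 1 to 4 and 172, 296, 60.6 and 109 in IL-6 KO tumor 1 to 4. The WT libraries lay close together, and the IL-6 KO libraries were all higher but spread widely, with library 3 nearest to WT and library 2 farthest. The mean went from 29.5 ± 2.84 (SD, n = 4) to 159 ± 102 (SD, n = 4), 5.40-fold, with a log2FC of 2.17 ± 0.41 (SE, adjusted p = 0.00788, limma).

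Both Mac-1 subunits rose. Itgam, the Mac-1 alpha subunit CD11b (ENSMUSG00000030786.18, chr7:128062640-128118491, plus strand), had normalized counts of 582, 400.3, 394 and 369 in WT tumor 1 to 4 and 846, 744, 695 and 700.5 in IL-6 KO tumor. WT tumor 1 stood above the other WT libraries and still below every IL-6 KO library. The log2FC was 0.79 ± 0.15 (SE, adjusted p = 0.00739, limma). Itgb2, the beta subunit CD18 shared by LFA-1 and Mac-1 (ENSMUSG00000000290.13, chr10:77530252-77565708, plus strand), had 2158, 2064, 1988 and 2114 in WT and 2806, 2697, 2610.3 and 2840.2 in IL-6 KO tumor. Both groups were narrow, and the gap between them was larger than the range of either. Its log2FC was 0.40 ± 0.06 (SE, adjusted p = 0.00421, limma). Itgal, the LFA-1 alpha subunit CD11a (ENSMUSG00000030830.18, chr7:127296260-127335138, plus strand) and partner of Itgb2 in lymphocytes, had 2854, 2814, 3131 and 3205 in WT and 3471, 3700.4, 2911 and 3311 in IL-6 KO tumor, groups that overlapped, with a log2FC of 0.15 ± 0.09 (SE, adjusted p = 0.233, limma).

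Icam1, the ligand of LFA-1 and Mac-1 (ENSMUSG00000037405.8, chr9:21015985-21028817, plus strand), had 1001, 853, 880.5 and 917 in WT and 1159, 1085, 1129 and 1052 in IL-6 KO tumor, and the log2FC was 0.28 ± 0.08 (SE, adjusted p = 0.0391, limma). The groups did not overlap, but the lowest IL-6 KO library was close to the highest WT library. The call was lost with quantile normalization (limma adjusted p = 0.0525), with the replicate number as a block (limma adjusted p = 0.0651) and when GC content and transcript length were adjusted for, where the log2FC was 0.11 (limma adjusted p = 0.376). It was also lost when any 1 of 6 of the 8 libraries was left out, with adjusted p between 0.0685 and 0.107 (WT tumor 2, 3 or 4, IL-6 KO tumor 1, 3 or 4).

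The remaining receptors did not pass the test in tumor, though Selplg and Cd44 did under some other settings. The selectin ligand Selplg (ENSMUSG00000048163.13, chr5:113818536-113832644, minus strand) had 4289.7, 3404, 4979.9 and 4259 in WT and 5315, 5843, 4747 and 5656 in IL-6 KO tumor, and the log2FC was 0.36 ± 0.11 (SE, adjusted p = 0.0532, limma). WT tumor 3 was above IL-6 KO tumor 3, the only crossing between the groups, and without either of these libraries the gene passed (limma adjusted p = 0.0375 and 0.0483). With all libraries Selplg passed when only genes with a mean over 50 were tested (limma adjusted p = 0.0487), with median centring (0.0454) and with array weights (0.0383). Cd44 (ENSMUSG00000005087.17, chr2:102811141-102901665, minus strand) had 1848, 1717, 1673 and 1874 in WT and 2238, 1774, 2433 and 2409.8 in IL-6 KO tumor, and the log2FC was 0.31 ± 0.11 (SE, adjusted p = 0.0685, limma). IL-6 KO tumor 2 lay within the WT range and the other IL-6 KO libraries above it, and without that library the log2FC was 0.41 (limma adjusted p = 0.0051). Array weights and removal of the GC and length trend also brought Cd44 past the threshold (limma adjusted p = 0.00716 and 0.0373).

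The VLA-4 pair had the estimates nearest to 0 in tumor. Itga4, the alpha 4 subunit CD49d (ENSMUSG00000027009.18, chr2:79255426-79333123, plus strand), had 8187, 9099.8, 9214 and 8746 in WT and 8379, 7947, 8784 and 8316 in IL-6 KO tumor, and the log2FC was -0.08 ± 0.06 (SE, adjusted p = 0.413, limma). Itgb1, the beta 1 subunit CD29 (ENSMUSG00000025809.15, chr8:128685654-128733200, plus strand), had 8125, 8675, 8522 and 8789.8 in WT and 7802, 6991, 9197 and 8316 in IL-6 KO tumor, with a log2FC of -0.08 ± 0.08 (SE, adjusted p = 0.502, limma). The groups overlapped for both genes. Their direction turned when the GC and length trend was removed, to 0.18 for Itga4 (limma adjusted p = 0.0373) and 0.12 for Itgb1 (limma adjusted p = 0.236), so the sign of these small differences depends on that step.

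**Figure D2:**
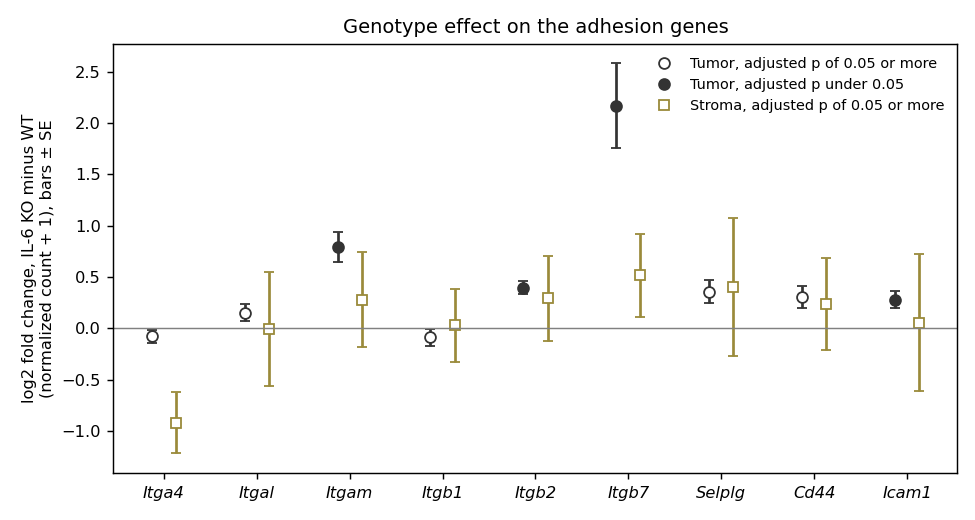
Log2FC (IL-6 KO minus WT, normalized count + 1) of each adhesion gene in tumor (circles) and stroma (squares), with bars of ± 1 standard error and filled symbols for an adjusted p under 0.05. The 4 filled circles are Itgam, Itgb2, Itgb7 and Icam1, and the stroma estimate farthest from 0 is that of Itga4, at -0.92.

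In stroma none of the 9 genes passed (limma), and 1, Itga4, had an unadjusted p under 0.05, as did 1117 of all 12202 genes tested. Of all 12202 genes tested in stroma 0.0082% were called, and 5.79% had genotypes that did not overlap, against 1 of the 9 adhesion genes. Itga4 had normalized counts of 1615, 1729, 1260.0 and 1662 in WT stroma 1 to 4 and 547, 870.1, 900.5 and 1065 in IL-6 KO stroma 1 to 4. Every IL-6 KO library was below every WT library, and the means were 1566 ± 209.5 (SD, n = 4) and 846 ± 217 (SD, n = 4). The log2FC was -0.92 ± 0.30 (SE, adjusted p = 0.432, limma), with an unadjusted limma p of 0.00909. Fewer cells of a type and less RNA per cell cannot be told apart in these bulk libraries. Simulated 4-fold changes at the spread of the real libraries were recovered in 45 of 200 changed genes in stroma (22.5%, among 11752 genes) and 163 of 200 in tumor (81.5%, among 14210 genes), so a missed threshold in stroma says little about a gene.

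The beta 2 integrins varied more within IL-6 KO stroma than between the genotypes. Itgam had 1319, 1355, 1013 and 1237 in WT and 1529, 1339, 596 and 3969 in IL-6 KO stroma, where library 3 was the lowest and library 4 the highest of all 8. The log2FC was 0.28 ± 0.46 (SE, adjusted p = 0.888, limma). Itgb2 had 649.6, 946, 1211 and 895 in WT and 1041, 1275, 508 and 2230.0 in IL-6 KO stroma, with the same 2 libraries at the extremes and a log2FC of 0.29 ± 0.42 (SE, adjusted p = 0.863, limma). Without IL-6 KO stroma 4, in which 61.5% of the normalized counts lay on the ribosomal RNA CT010467.1, the log2FC turned to -0.19 for Itgam, -0.04 for Itgb2 and -0.21 for Cd44.

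Itgb7 had 229.8, 136, 175 and 259 in WT and 311, 359, 145 and 368 in IL-6 KO stroma, 3 of the 4 IL-6 KO libraries above the WT range, with a log2FC of 0.52 ± 0.41 (SE, adjusted p = 0.721, limma). Itgal spanned 453 to 1587 in WT and 231 to 1566 in IL-6 KO stroma, and Itgb1 326 to 464 and 273 to 643, with log2FC of -0.00 (SE 0.56) and 0.03 (SE 0.36). Cd44 spanned 295 to 459 in WT and 212 to 1062 in IL-6 KO stroma, with a log2FC of 0.24 ± 0.45 (SE, adjusted p = 0.9, limma). Selplg lay between 50.1 and 64.6 in WT stroma 1, 2 and 4 and at 350.4 in WT stroma 3, and between 54.1 and 235 in IL-6 KO stroma. Its log2FC was 0.41 ± 0.67 (SE, adjusted p = 0.888, limma), and 1.07 without WT stroma 3. Icam1 spanned 36.0 to 104 in WT and 16.7 to 136 in IL-6 KO stroma, with a log2FC of 0.06 ± 0.67 (SE, adjusted p = 0.991, limma), which became -0.33 when IL-6 KO stroma 4 was left out and 0.66 when IL-6 KO stroma 3 was.

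Whether the genotype effect differed between the compartments was tested as an interaction over the 10887 genes tested in both. It used 1 weight per compartment, 0.24 in stroma and 4.23 in tumor, shared by all genes. A gene's own spread in each compartment was therefore not fitted, and for Itgb7 the separate fits had an SE of 0.41 in tumor and 0.41 in stroma. None of the 9 genes passed (limma), against 0.00919% of all genes, and 1 of them had an unadjusted p under 0.05, against 954 of all 10887. That 1 was Itga4, whose log2FC was -0.92 in stroma and -0.08 in tumor, a difference of -0.84 ± 0.27 (SE, adjusted p = 0.388, limma). For Itgb7 the difference was -1.65 ± 1.36 (SE, adjusted p = 0.787, limma) and for Itgam -0.51 ± 0.59 (SE, adjusted p = 0.860, limma). So the calls made in tumor were not shown to be particular to tumor.

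The 2 subunits of a pair can be compared within a library, since the scale of the library cancels. In tumor the log2 ratio of Itga4 to Itgb1 was near 0 in both genotypes, with a mean of 0.05 ± 0.05 over the 4 WT libraries and 0.06 ± 0.11 over the 4 IL-6 KO libraries (SD, two-sided exact permutation p = 0.886). The log2 ratio of Itga4 to Itgb7 was 7.97, 8.30, 8.47 and 8.17 in WT tumor and 5.61, 4.75, 7.18 and 6.26 in IL-6 KO tumor. Every IL-6 KO library was lower, by 2.28 in the mean (two-sided exact permutation p = 0.0286, the lowest possible with 4 and 4 libraries, adjusted p = 0.0762 over 8 ratios). In stroma the same ratio was 2.81, 3.67, 2.85 and 2.68 in WT and 0.82, 1.28, 2.63 and 1.53 in IL-6 KO libraries, again without overlap, a difference of -1.44 (exact permutation p = 0.0286, adjusted p = 0.0762).

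The ratio of Itga4 to Itgb1 in stroma was 1.83, 1.90, 1.95 and 1.96 in WT and -0.02, 1.67, 0.49 and 1.70 in IL-6 KO libraries (exact permutation p = 0.0286, adjusted p = 0.0762). The 4 WT libraries agreed closely, and in IL-6 KO stroma libraries 1 and 3 were far below while 2 and 4 were just below the WT range. For the beta 2 pairs, Itgal to Itgb2 went from 0.53 ± 0.12 (SD, n = 4) to 0.29 ± 0.13 (SD, n = 4) in tumor, and Itgam to Itgb2 from -2.28 ± 0.27 (SD, n = 4) to -1.88 ± 0.12 (SD, n = 4), both with an exact permutation p of 0.0857. In stroma these ratios overlapped (exact permutation p = 0.514 and 1). No ratio passed an adjusted p of 0.05, and with 8 tests 3 at the smallest p cannot reach it.

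**Figure D3:**
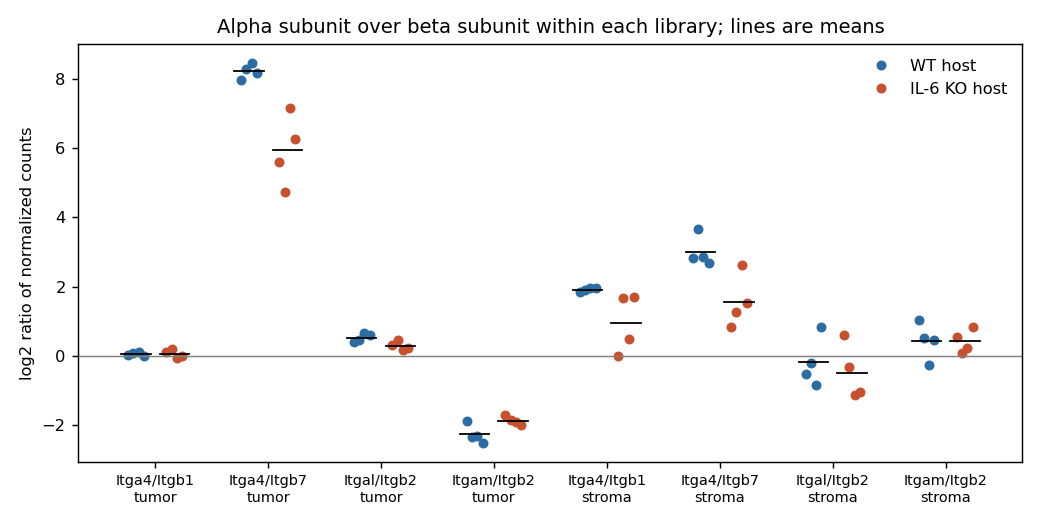
Log2 ratio of the alpha to the beta subunit of 4 integrin pairs in each tumor and stroma library, with blue points for WT, red points for IL-6 KO and a line at the mean of 4. The genotypes do not overlap for Itga4/Itgb7 in tumor and for Itga4/Itgb1 and Itga4/Itgb7 in stroma.

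To order the genes by level, normalized counts were divided by the length of the longest coding transcript and expressed as parts per 1000000 (ppm) of the sum over 10534 protein-coding genes listed in both compartments. In WT tumor the level was highest for Selplg, at 159.8 ± 26.1 ppm (SD, n = 4), and Itgb1, at 157 ± 8.46, and these 2 overlapped. Itga4 followed at 63.2 ± 4.90, Itgb2 at 49.0 ± 0.661, Itgal at 40.2 ± 3.24, Icam1 at 25.2 ± 1.20 and Cd44 at 22.1 ± 0.868, each above the next in every library. Itgam, at 6.50 ± 1.29, and Itgb7, at 0.767 ± 0.0544, were lowest, and Itgb7 stood above only 7.42% to 9.09% of protein-coding genes. In IL-6 KO tumor Itgb2 (60.0 ± 2.37) and Itga4 (55.7 ± 1.87) changed places and overlapped, and the other genes kept their ranks, with Icam1 and Cd44 overlapping.

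In WT stroma the order was led by the Mac-1 subunits, with Itgb2 at 203 ± 52.6 ppm and Itgam at 171 ± 21.8, ahead of Itgal (108 ± 54.3) and Itga4 (104 ± 12.4). Each of these overlapped the next, and all lay above Itgb1 (71.4 ± 10.8) in the mean, with Itga4 above it in every library. Itgb1, Itgb7 (48.5 ± 12.9), Selplg (46.1 ± 54.2) and Cd44 (41.9 ± 7.31) each overlapped the next, and Icam1 (16.3 ± 8.03) had the lowest mean, below Cd44 in every library. In IL-6 KO stroma Itgb2, Itgam and Itgal again led, Itga4 was the seventh at 50.5 ± 6.92, and every neighbour overlapped. The order between genes rests on the transcript length used. With the median length of coding transcripts, which short partial models set to 430.5 nucleotides for Itgb7, 413 for Selplg and 630 for Itgb2, Itgb2 came before Itga4 in WT tumor and Itgb7 was the second in WT stroma.

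Between compartments, levels are a description only, with no test. Each level is a share of its own library's sum, so it depends on what else that sum holds. Itgb1 and Selplg were higher in every tumor library than in every stroma library, with WT tumor means 2.19 and 3.47 times those of WT stroma. Itgam, Itgb2 and Itgb7 were lower in every tumor library, and their WT stroma means were 26.4-fold, 4.15-fold and 63.2-fold those of WT tumor. In IL-6 KO mice these 3 ratios of stroma to tumor were 22.8, 4.23 and 17.3. Itga4, Itgal, Cd44 and Icam1 overlapped between compartments. When each library was scaled to the sum over all its genes instead, 6 of the 9 genes (all but Itgam, Itgb2 and Itgb7, which overlapped) were higher in every tumor library. On that scale the ratios of stroma to tumor means fell to 4.96 for Itgam and 11.03 for Itgb7 in WT and to 1.87 and 1.08 in IL-6 KO mice, and for Itgb2 they turned, to 0.701 in WT and 0.31 in IL-6 KO mice. In WT mice the ratios of stroma to tumor means also turned for Itga4 (1.65 to 0.306), Itgal (2.68 to 0.416) and Cd44 (1.89 to 0.316). So this comparison depends on the denominator, and for Itgb2, Itga4, Itgal and Cd44 its direction does.

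**Figure D4:**
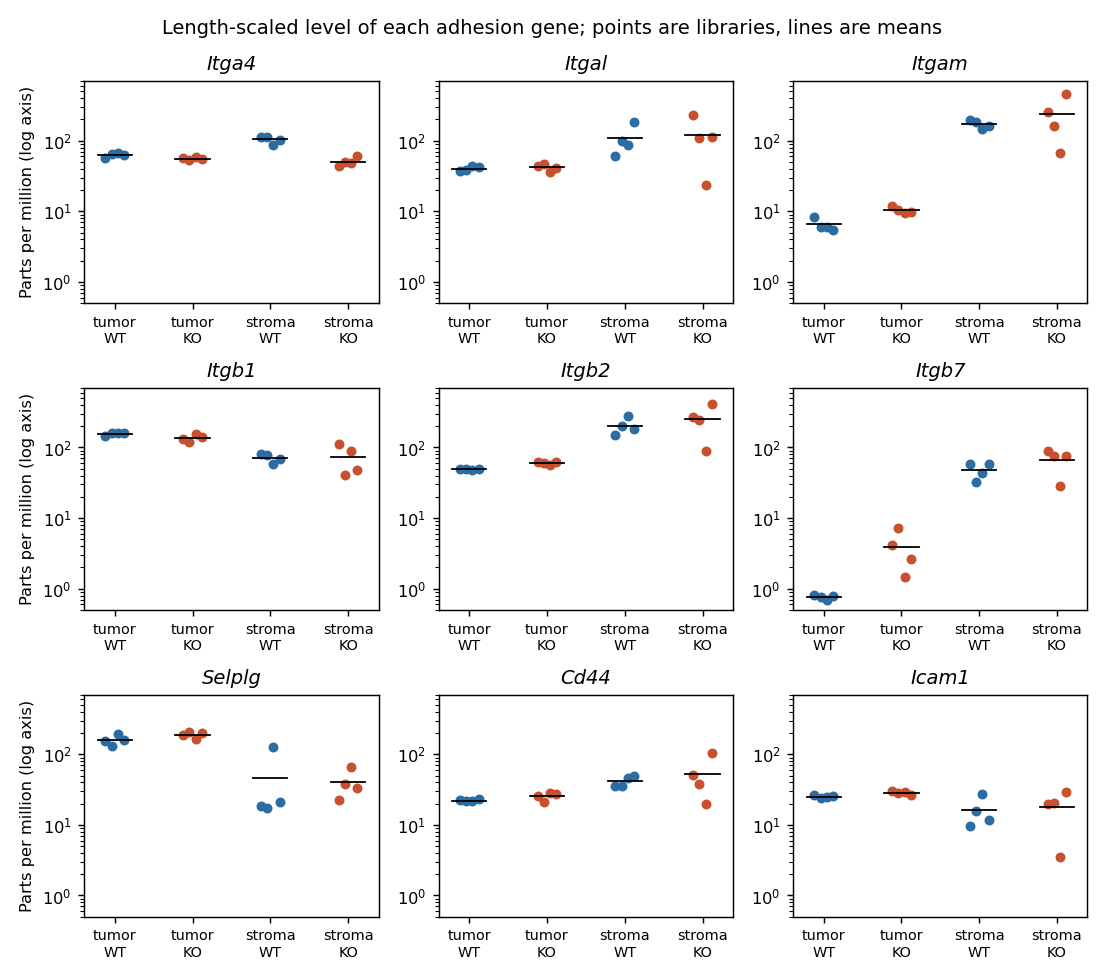
Length-scaled level of each adhesion gene in ppm (log axis, the same in every panel) in WT tumor, IL-6 KO tumor, WT stroma and IL-6 KO stroma, with blue points for WT, red points for IL-6 KO and a line at the mean of 4 libraries. Itgam and Itgb7 are far lower in WT tumor than in WT stroma (WT stroma means 26.4-fold and 63.2-fold those of WT tumor), while Selplg and Itgb1 lie above stroma.

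Most neutrophil markers, like Itgb7, Itgam and Itgb2, were higher in IL-6 KO tumor. The summed level of 14 neutrophil markers was 363 to 416 ppm in WT tumor and 497 to 1213 in IL-6 KO tumor, and 12 of the 14 rose in IL-6 KO tumor (limma, median log2FC 1.53), against 10.6% of all genes. By library the sum was 1121, 1213, 497 and 1018 in IL-6 KO tumor 1 to 4, which put these libraries in the same order as Itgb7. Itgam and Itgb2 were less spread than the marker sum, and in IL-6 KO tumor 3, where the sum was lowest, Itgam was 695 and Itgb2 2610.3, both above the WT range. In stroma the same sum was 5063 to 8618 in WT and 3809 to 19197 in IL-6 KO, with none of the 14 called (limma, 4 with an unadjusted p under 0.05, against 1117 of all 12202 genes). By library it was 19197, 13356, 3809 and 11335 in IL-6 KO stroma 1 to 4. Library 3, with the lowest Itgam and Itgb2, had the lowest sum, but library 4, with the highest Itgam and Itgb2, had a sum below those of libraries 1 and 2. The part of neutrophil RNA in these results was not tested.

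**Figure D5:**
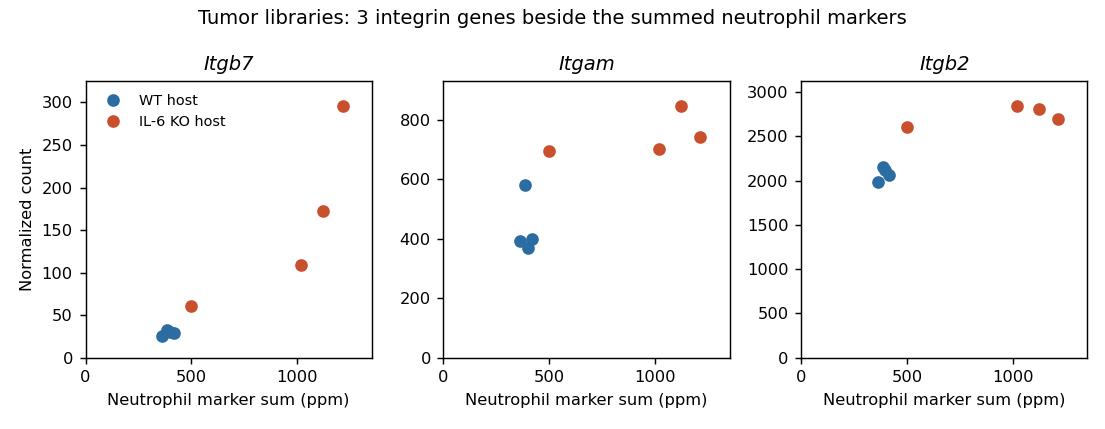
Normalized count of Itgb7, Itgam and Itgb2 (vertical axes, from 0) against the summed level of 14 neutrophil markers in ppm (horizontal axis, from 0) in each tumor library, blue for WT and red for IL-6 KO. The WT libraries cluster at 363 to 416 ppm and the IL-6 KO libraries lie to the right and above in all 3 panels.

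Of 12 monocyte and macrophage markers 4 rose in IL-6 KO tumor (limma, against 10.6% of all genes) and none fell, while 6 of the 12 estimates were below 0, among them Mertk at -0.86 (limma adjusted p = 0.123) and C1qa at -0.59 (limma adjusted p = 0.135), and the sum of the 12 was 25.0 to 34.0 ppm in WT and 30.9 to 69.8 in IL-6 KO tumor. The 12 B lineage markers summed to 6803 to 6890 in WT and 6675 to 7517 in IL-6 KO tumor (1 higher and 2 lower, against 19.8% of all genes called), and to 218 to 332 and 132 to 275 in stroma. Erythroid markers summed to 55097 to 70793 in WT and 19887 to 72278 in IL-6 KO stroma, with Hbb-bs and Ahsp not listed, and none of the 6 tested in tumor was called (limma, none with an unadjusted p under 0.05). Mesenchymal and endothelial markers summed to 66.4 to 88.8 in WT and 41.1 to 247 in IL-6 KO stroma, with 6 of 12 not listed in stroma (Cxcl12, Lepr, Pdgfra, Cdh5, Emcn and Tek), and none called in tumor (limma, none with an unadjusted p under 0.05). Of the T and NK cell markers Cd3e, Cd3d, Cd3g and Cd8a were not listed and none of 5 was called in tumor (limma, 3 with an unadjusted p under 0.05, against 5091 of all 14493 genes), and of the megakaryocyte markers 1 of 4 (Vwf) was lower in IL-6 KO tumor. None of these 6 lists held a called gene in stroma (limma, 1 or 2 genes of each with an unadjusted p under 0.05, against 1117 of all 12202 genes).

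The partners and regulators of these receptors were followed on 5 lists, in which stroma gave no call (limma, with 0 to 3 genes of a list at an unadjusted p under 0.05, against 1117 of all 12202 genes). The smallest p of each list in stroma belonged to Itga2b, Gcnt1, Cd47, Flna and Hmmr. Values after ± are the SD of 4 libraries. Of all genes 19.8% were called in tumor (10.6% higher, 9.16% lower), with a median log2FC of -0.01. Among other integrin subunits, 1 of 13 was called in tumor (median log2FC -0.15). Itga5, which with Itgb1 forms the classical fibronectin receptor, fell, with a normalized count of 174 ± 76.9 in WT and 74.3 ± 23.4 in IL-6 KO tumor, and a log2FC of -1.19 ± 0.32 (SE, adjusted p = 0.0303, limma). In stroma 1 of 10 had an unadjusted p under 0.05, the platelet integrin Itga2b, with a normalized count of 102 ± 71.9 in WT and 416 ± 264 in IL-6 KO stroma, and a log2FC of 2.16 ± 0.59 (SE, adjusted p = 0.324, limma).

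Among selectins and the enzymes that make their ligands, 3 of 12 were called in tumor, 1 higher and 2 lower (median log2FC -0.01), near the 19.8% of all genes. Tpst1, a tyrosine sulfotransferase that acts on PSGL-1, fell, with a normalized count of 1902 ± 170.0 in WT and 1391 ± 102 in IL-6 KO tumor, and a log2FC of -0.45 ± 0.09 (SE, adjusted p = 0.0088, limma), and Cd24a, a P-selectin ligand, had a log2FC of -0.39 ± 0.09 (SE, adjusted p = 0.0148, limma). Spn (CD43), a mucin of white cells, rose by 0.18 ± 0.05 (SE, adjusted p = 0.0451, limma). Gcnt1, the core 2 enzyme of selectin ligands, had a normalized count of 609 ± 85.4 in WT and 314 ± 115 in IL-6 KO stroma, and a log2FC of -1.02 ± 0.35 (SE, adjusted p = 0.434, limma).

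Among immunoglobulin family and matrix ligands, 1 of 10 was called in tumor (median log2FC 0.08), against 19.8% of all genes. Fn1, fibronectin, the matrix ligand of VLA-4, lay between 85.2 and 159 in WT and between 238 and 2042 in IL-6 KO tumor, and the log2FC was 3.12 ± 0.60 (SE, adjusted p = 0.008, limma), and 3.84 without IL-6 KO tumor 3. In stroma none of 9 had an unadjusted p under 0.05 (limma), and Cd47 had a normalized count of 2219 ± 432 in WT and 1424 ± 614 in IL-6 KO stroma, and a log2FC of -0.77 ± 0.40 (SE, adjusted p = 0.579, limma).

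Among proteins that activate integrins or link them to actin, 8 of 29 were called in tumor, 5 higher and 3 lower (median log2FC 0.06), against 19.8% of all genes. Fermt3 (kindlin-3), which binds integrin beta tails to activate them in blood cells, rose, with a normalized count of 7507 ± 519 in WT and 9734 ± 308 in IL-6 KO tumor, and a log2FC of 0.38 ± 0.06 (SE, adjusted p = 0.00531, limma). Flna (filamin A), which holds integrins to actin, rose by 0.71 ± 0.11 (SE, adjusted p = 0.00393, limma), while Rap1a, a small GTPase of integrin activation, fell, with a normalized count of 2689 ± 204 in WT and 1639 ± 243 in IL-6 KO tumor, and a log2FC of -0.72 ± 0.11 (SE, adjusted p = 0.00308, limma). In stroma the estimates of Flna and Rap1a were 0.93 ± 0.34 (SE, adjusted p = 0.458, limma) and -1.14 ± 0.42 (SE, adjusted p = 0.458, limma).

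Among ligands, partners and sheddases of CD44, 4 of 11 were called in tumor, 3 higher and 1 lower (median log2FC 0.07), against 19.8% of all genes. Srgn (serglycin), a granule proteoglycan that CD44 can bind, fell, with a normalized count of 2144 ± 86.2 in WT and 1314 ± 194 in IL-6 KO tumor, and a log2FC of -0.72 ± 0.11 (SE, adjusted p = 0.00308, limma). Msn (moesin), which ties CD44 to actin, and Nf2 (merlin), which opposes it, rose by 0.23 ± 0.07 (SE, adjusted p = 0.0427, limma) and 0.24 ± 0.07 (SE, adjusted p = 0.0388, limma). Hmmr, a hyaluronan receptor that is also a mitotic protein, had a normalized count of 733 ± 229 in WT and 263 ± 99.5 in IL-6 KO stroma, and a log2FC of -1.50 ± 0.40 (SE, adjusted p = 0.324, limma).

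Some of these companion calls lay close to the threshold. Those of Spn and Msn were lost when any 1 library other than IL-6 KO tumor 2 was left out (7 of 8 libraries, limma adjusted p up to 0.108 for Spn and 0.119 for Msn), while their log2FC stayed between 0.16 and 0.20 and between 0.20 and 0.29. That of Nf2 was lost without WT tumor 1, 2 or 4 or IL-6 KO tumor 1 or 4 (up to 0.102, log2FC 0.20 to 0.27), and that of Itga5 without WT tumor 2, 3 or 4 or IL-6 KO tumor 1 or 3 (up to 0.0685, log2FC -1.37 to -0.92). Quantile normalization also ended the calls of Msn (limma adjusted p = 0.208), Nf2 (0.0952) and Spn (0.192), and the replicate block those of Nf2 (limma adjusted p = 0.0862) and Spn (0.0823). With the GC and length trend removed the tumor calls of Fermt3 (limma adjusted p = 0.174), Spn (0.761), Nf2 (0.113) and Cd24a (0.0541) were lost, and with the block added to that step Cd24a passed again (0.0346) while Fermt3 (0.191), Spn (0.749) and Nf2 (0.177) did not.

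The genes whose pattern over the 16 libraries was most like each adhesion gene were found by Pearson's r of log2 ppm among 8145 protein-coding genes, as a description. The points share the contrast of tumor and stroma and the scale of each library, so r is high for many genes. For Itgb7 they were S100a9 (0.986) and Flot2 (0.986), for Itgam Mmp25 (0.994) and Atp8b4 (0.990) and for Itgb2 Siglece (0.991) and Clec12a (0.989). S100a9 encodes a calprotectin subunit and Mmp25 a protease of neutrophils, and Siglece and Clec12a encode myeloid surface receptors. For Itga4 they were Tonsl (0.965) and Hmmr (0.956), of which Tonsl acts in DNA replication repair and Hmmr in mitosis. For Itgal they were Fam32a (0.954) and Wdfy1 (0.947), for Itgb1 Ints7 (0.984) and Smu1 (0.973) and for Selplg Wwc2 (0.959) and Nubp1 (0.956). For Cd44 they were Rab3gap2 (0.956) and Clip1 (0.942), and for Icam1 Gpi1 (0.950) and Entpd7 (0.938).

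Reads of 3 of the genes could have been shared with an overlapping gene. Gm49368 shares 3454 nucleotides with Itgam at 99.9% identity, was listed only in stroma and held at most 7.33% of the sum of the 2 genes. Cerkl, on the opposite strand of Itga4, held at most 1.49% of their sum in tumor and 7.30% in stroma. Gm47079, antisense to Icam1, held at most 1.19% in tumor but up to 69.2% in a stroma library, so Icam1 in stroma is uncertain.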

How the data were processed

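RNA of mCherry+ and mCherry- marrow cells was sequenced in 16 libraries. The authors depleted ribosomal RNA, quantified transcripts with salmon 1.3.0 on mm10 and normalized estimated counts with DESeq2 1.28.1. They deposited 1 table of normalized counts for each compartment, a signal scaled within each table that is not in whole reads. The deposited tables of fold changes and p-values were not used. Sums of normalized counts are not depths, so the depth of each library and its precision are unknown.

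Genotypes were tested within each table with limma 3.58.1 (R 4.3.3, variances following the mean) on log2(normalized count + 1) over genes with a mean over 10, with two-sided p-values adjusted by Benjamini-Hochberg and called under 0.05. The interaction used array weights by compartment. Ratios were tested by exact permutation with SciPy 1.17.1. Symbols and lengths came from GENCODE vM21 (GRCm38), in which 15069 tumor and 13338 stroma identifiers were found. Overlapping genes were found with BLAST 2.17.0 (at least 97% identity over 150 nucleotides). Levels in ppm (parts per 1000000) were planned with the median transcript length, but the longest was used, because partial models set the median of 3 genes. 

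The 9 genes, 5 companion lists and 7 marker lists were chosen with earlier results of these data known. Named in the text are the 9 genes, up to 3 genes per companion list and compartment with the smallest adjusted p under 0.05, or else the 1 with the smallest p, and 2 genes most like each of the 9 (mean of at least 10 ppm). Vwf, Mertk, C1qa, Rn7s1, CT010467.1, the overlapping genes and the stroma value of Rap1a were chosen after their values were seen. The tests were tried on simulated data, in which the stroma and tumor tests made 4 and 9 false calls. The interaction recovered 125 of 301 changed genes of 10506 and made 19 false calls. Alternatives were pseudocounts of 0.5 and 5, other filters, quantile normalization, median centring, a replicate block, array weights, removal of GC and length trends (loess, span 0.3) and each library left out. The length trend used the median transcript length, which partial models set for Itgb7, Selplg and Itgb2.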

Additional observations from a re-analysis of the deposited data

Results flagged for a closer look

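Of 52 groups of 4 libraries tested with Dixon's criterion, 3 held a library far from the others, where chance gives about 1 in 20. Itgam in WT tumor 1 had a normalized count of 582, with the other WT tumor libraries at 369 to 400.3. Selplg in WT stroma 3 had a normalized count of 350.4, with the others at 50.1 to 64.6. The log2 ratio of Itga4 to Itgb7 in WT stroma 2 was 3.67, with the others at 2.68 to 2.85.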

How the results depend on the processing

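The count of adhesion genes called in tumor was 4, and between 3 and 6 under the other settings with all libraries (3 with quantile normalization or the replicate number as a block, 6 with array weights), and leaving out 1 library gave 3 to 5. It was 0 in stroma and 0 for the interaction under every setting run. Same-numbered WT and IL-6 KO libraries deviated together little or not at all (r between -0.02 and -0.0003 in tumor, -0.03 and 0.13 in stroma). With so few libraries this cannot show whether the numbers pair them. The block took the count of all genes called in tumor from 2870 to 2230. Removal of the GC and length trend took it to 1809, array weights to 4153, and leaving out 1 library gave 1572 (without IL-6 KO tumor 4) to 3328 (without IL-6 KO tumor 2), with 1606 without IL-6 KO tumor 1, 1713 without WT tumor 3 and 1784 without WT tumor 2. With the sum over all genes as denominator, 6 in place of 2 genes were higher in every tumor library.

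With the GC and length trend removed, with or without the block, the tumor log2 fold change reversed to 0.18 for Itga4 (limma adjusted p = 0.0373 without the block, 0.0734 with it) and 0.12 for Itgb1, and the stroma value to -0.0620 for Icam1. Itgb1 in stroma reversed to -0.0296 with quantile normalization and -0.26 with array weights. With 1 library left out, stroma log2 fold changes that crossed 0 ranged from -0.21 to 0.56 for Cd44, -0.33 to 0.66 for Icam1, -0.33 to 0.59 for Itgal, -0.19 to 0.72 for Itgam, -0.17 to 0.24 for Itgb1 and -0.0430 to 0.67 for Itgb2. The differences between compartments that crossed 0 ranged from -0.52 to 0.26 for Cd44, -0.61 to 0.38 for Icam1, -0.49 to 0.43 for Itgal, -0.0861 to 0.32 for Itgb1, -0.44 to 0.27 for Itgb2 and -0.29 to 0.71 for Selplg. The differences of log2 ratios that crossed 0 ranged from -0.0342 to 0.0496 for Itga4/Itgb1 in tumor, -0.66 to 0.0401 for Itgal/Itgb2 in stroma and -0.25 to 0.18 for Itgam/Itgb2 in stroma. The cause was not tested. Itgb7, Itgam and Itgb2 kept their tumor calls in every setting run. The read depth of each library is unknown, and the wide spread between stroma libraries limits what could be called there.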
